A study of Mus musculus with 26 samples.

Results

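The regulatory factor X (RFX) genes Rfx1, Rfx2, Rfx3, Rfx4, Rfx5 and Rfx7 were followed through mouse testes and sorted male germ cells in which Nkapl or Sox30 was mutated. The 6 genes were chosen by name from the 24682 gene symbols of the count tables, and all 6 passed the filter on low counts in every comparison. The study asked which transcripts change when Nkapl, a germ cell gene whose product is related to NF-kappa-B activating protein, or Sox30, a testis transcription factor gene, is lost. RNA was measured by sequencing at postnatal day 21, when the first round spermatids appear.

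Whole testes of C57BL/6 mice form 3 sets. The Nkapl set has 2 libraries of Nkapl knockout (KO) testis and 3 of wild-type (WT) testis. The TGdel set has 3 libraries of testis homozygous for an Nkapl allele named TGdel and 2 of WT testis. A frameshift of NKAPL is named in the title of the series. The Sox30 set has 2 libraries of Sox30 KO testis and 3 of WT testis. Sorted cells are round spermatids (RS, haploid cells) and pachytene spermatocytes (PS, cells in meiotic prophase), each with 2 libraries labelled Nkapl KO and 2 labelled WT, of mice given as 21 days old. No label says how an allele was made, which part of either gene is missing, how the cells were sorted or what strain the sorted cells came from. The design text speaks of biological triplicates and no label ties libraries to animals, so p-values measure the spread between libraries.

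Libraries were grouped by the heading of their count column, with 3 files of repeated values used once, which left 23 libraries of 16469667 to 40010106 counts. For 4 of them (Nkapl-set WT 3, Sox30-set WT 3, TGdel-set WT 2 and TGdel 3) the sample record of the file names another genotype group. Results on the RFX genes in testis are therefore given also for the libraries on which heading and record agree (2 against 2 in the Nkapl and Sox30 sets, 2 against 1 in the TGdel set). The targeted gene Nkapl measured 60.8 and 57.8 CPM (counts scaled to library size) in Nkapl KO testes and 74.9, 79.5 and 79.9 CPM in their WT testes. In RS it measured 24.6 and 23.6 CPM in KO and 88.4 and 90.3 CPM in WT. In PS its level went against the labels, with 126.8 and 124.6 CPM in the libraries labelled KO and 90.1 and 86.0 CPM in those labelled WT. The genotype of PS libraries is therefore given as labelled. Sox30 measured 44.7 and 61.5 CPM in Sox30 KO testes and 77.6, 86.2 and 72.4 CPM in their WT testes. Nkapl measured 107.0, 117.7 and 125.7 CPM in TGdel testes and 101.0 and 102.9 CPM in their WT testes, and no label says whether this allele lowers the transcript. A summed panel of 10 spermatid genes measured 7111.56 to 7390.17 CPM in WT RS and 2079.41 to 2193.74 CPM in PS labelled WT, with 10 of 10 genes higher in RS, and 4 of 7 pachytene markers were lower in RS and 2 higher, so RS and PS markers were present in both sorts.

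RFX proteins are transcription factors with a winged-helix DNA-binding domain that recognise a sequence called the X-box, which is built from a pair of facing half-sites. RFX1, RFX2, RFX3 and RFX4 can pair with one another and are known for switching on genes of cilia, and in mice RFX2 is needed for round spermatids to form their flagellum, a modified cilium. RFX5 works in a complex with RFXANK and RFXAP at promoters of major histocompatibility complex (MHC) class II genes, and RFX7 is known from human cell lines as an activator of growth-restraining genes.

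Promoter sequence is shown for the genes that share a run of letters at their start, which holds a half-site of the X-box. The 9 letters ACNGTTGCC, an RFX half-site (GTTGCC) with AC and any base before it, were searched on both strands from 250 bases before to 50 bases after each start in RefSeq (build GRCm38.p6), where all 6 genes were matched through 7 windows, as Rfx4 has 2 starts. They occurred once in Rfx1, Rfx2 and Rfx3, and in 0.6545% of 32851 windows of the same length. The letters were chosen after these promoters had been read, so the count is a description. In each line the capitals mark the 9 letters, and each window is 30 bases long, read in the direction of the gene.
Rfx1 (chr8:84066824-84066853, plus strand, bases -2 to 7 from the start): gtgggtagcaACAGTTGCCccggtgaggga
Rfx2 (chr17:56831108-56831137, minus strand, bases -119 to -111): cagcttggtaACCGTTGCCgggcgcaacgc
Rfx3 (chr19:28011119-28011148, minus strand, bases 29 to 37): agttatagcaACCGTTGCCttgtgaatcaa

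Longer stretches are given for Rfx1 and Rfx2, the members that were lower together in Nkapl KO testis.
Rfx1, 250 bases before the start (chr8:84066586-84066835, plus strand; capitals open the match that crosses the start): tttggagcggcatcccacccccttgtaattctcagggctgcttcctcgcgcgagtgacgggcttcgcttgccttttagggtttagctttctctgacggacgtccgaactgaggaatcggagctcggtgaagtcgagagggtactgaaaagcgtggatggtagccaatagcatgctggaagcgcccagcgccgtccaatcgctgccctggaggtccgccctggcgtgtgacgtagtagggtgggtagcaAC
Rfx2, 250 bases before the start (chr17:56831009-56831258, minus strand; capitals mark a pair of half-sites that face outward): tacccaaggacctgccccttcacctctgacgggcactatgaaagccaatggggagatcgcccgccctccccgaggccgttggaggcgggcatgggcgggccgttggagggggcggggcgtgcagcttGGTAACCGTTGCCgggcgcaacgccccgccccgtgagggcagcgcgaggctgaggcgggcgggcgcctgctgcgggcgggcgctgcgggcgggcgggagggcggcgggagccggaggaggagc

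The half-site GTTGCC alone was in 12.51% of all windows and, among the 6 genes, in Rfx1, Rfx2 and Rfx3. The 9 letters overlap AACNGTT, a core read by MYB factors, which stood in the same 3 genes and in 4.453% of all windows. Half-sites facing outward (GGNAAC and GTTNCC with 0 to 3 bases between) were in Rfx2 and in 0.1248% of all windows. The inward-facing X-box (GTTNCC and GGNAAC, 0 to 3 bases between) was in none of the 7 windows and in 0.8036% of all. The cyclic AMP response half-site TGACGT stood at -24 to -19 in Rfx1 (7.513% of all windows). The SOX core ACAATG stood at -22 to -17 of the first Rfx4 start (12.57%). CCAAT was in Rfx1, Rfx2, Rfx4 and Rfx5 (37.41%).

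**Figure D1:**
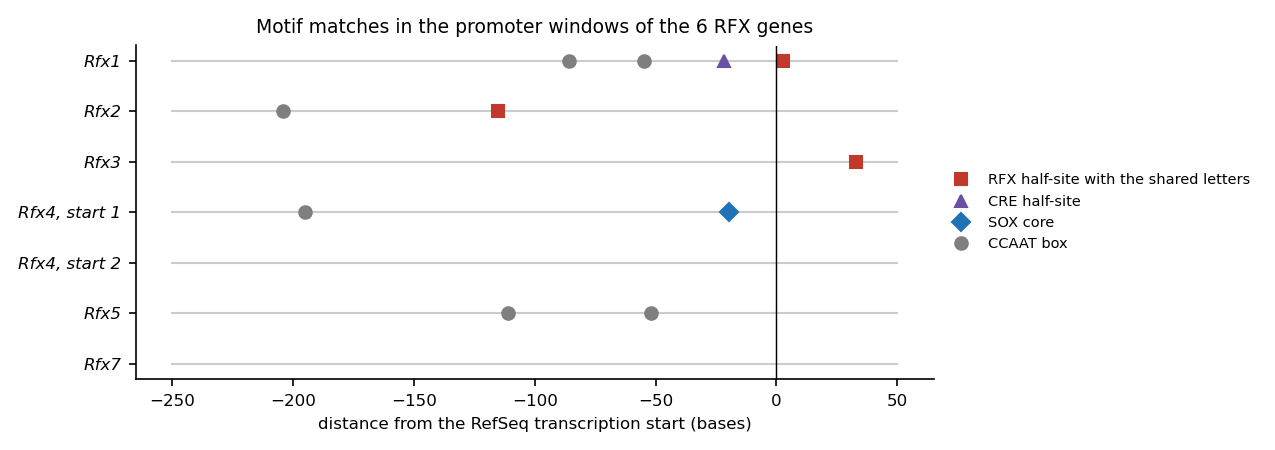
Motif matches in the promoter windows of the 6 RFX genes, with distance from the RefSeq transcription start in bases on the x axis and 1 line per start (Rfx4 has 2). Squares, the half-site with the shared letters, lie on the lines of Rfx1, Rfx2 and Rfx3.

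The genes differ widely in level. Per kilobase of exon (union of GENCODE M21 exons, GRCm38), Rfx2 led in every group. In WT testis of the Nkapl set it had 57.0 ± 1.76 CPM per kb (SD, n = 3), ahead of Rfx4 at 19.8 ± 0.734, Rfx5 at 11.3 ± 0.374, Rfx7 at 8.44 ± 0.273, Rfx1 at 7.84 ± 0.190 and Rfx3 at 3.57 ± 0.0390 CPM per kb. Neighbours in that order did not overlap in the Nkapl set, whereas the ranges of Rfx7 and Rfx1 overlapped in both groups of the Sox30 set and in WT of the TGdel set. In RS of WT mice the order was Rfx2 (94.5 ± 4.83), Rfx1 (45.9 ± 0.131), Rfx4 (31.2 ± 0.167), Rfx3 (6.63 ± 0.0560), Rfx5 (1.38 ± 0.0393) and Rfx7 (0.843 ± 0.0916 CPM per kb, n = 2). In PS labelled WT it was Rfx2 (70.6 ± 1.97), Rfx4 (23.6 ± 1.22), Rfx1 (17.9 ± 0.397), Rfx5 (4.10 ± 0.0592), Rfx3 (2.57 ± 0.0323) and Rfx7 (1.48 ± 0.145 CPM per kb, n = 2). Rfx1 and Rfx4 overlapped in KO RS, at 36.2 ± 0.363 and 35.9 ± 0.204 CPM per kb.

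Rfx2 made up 44.6% to 59.8% of the summed level of the 6 genes in the 23 libraries. The share of Rfx1 was 4.07% and 4.01% in Nkapl KO testes and 7.57%, 7.09% and 7.13% in their WT testes. It was 22.0% and 21.8% in KO RS and 24.9% and 26.0% in WT RS, and 8.11% and 8.35% in PS labelled KO and 15.2% and 14.7% in PS labelled WT. Rfx5 was 9.91% to 15.1% of the sum in the testis libraries, 3.37% to 5.27% in PS and 0.740% to 0.836% in RS. Rfx7 followed the same order, with 5.46% to 12.2% in testis, 1.14% to 1.92% in PS and 0.389% to 0.494% in RS. Counts per library ran from 3968 to 13395 for Rfx2, from 228 to 5113 for Rfx1, from 1158 to 3418 for Rfx4, from 251 to 1772 for Rfx3, from 117 to 2270 for Rfx5 and from 171 to 5600 for Rfx7.

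**Figure D2:**
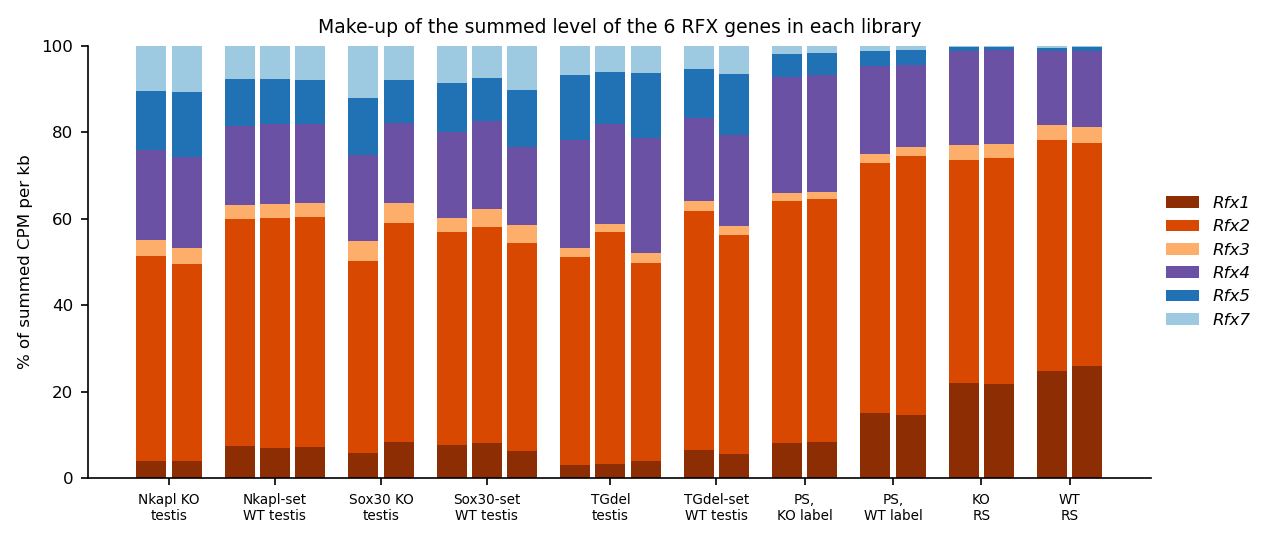
Share of each gene in the summed level of the 6 RFX genes (CPM per kb, in percent), with 1 bar per library and libraries grouped by column heading. Rfx2 is the widest band throughout, and Rfx1 is wider in RS (21.8% to 26.0%) than in the testis bars.

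In Nkapl KO testis, transcripts of Rfx1 and Rfx2 were lower and those of Rfx5 and Rfx7 slightly higher. Rfx1, a widely expressed family member, measured 22.9 and 23.0 CPM in KO testes and 51.5, 50.6 and 49.1 CPM in WT testes. Both KO libraries lay below every WT library, with a log2 fold change of -1.14 ± 0.06 (SE, 95% interval -1.26 to -1.01, edgeR adjusted p = 4.47e-11). Rfx2, the spermatid factor, measured 302 and 296 CPM in KO testes and 404, 430 and 416 CPM in WT testes, again without overlap (-0.48 ± 0.04, interval -0.56 to -0.40, adjusted p = 6.51e-09). Restricted to the agreeing libraries, the changes were -1.16 ± 0.07 for Rfx1 (adjusted p = 1.67e-08) and -0.48 ± 0.05 for Rfx2 (2.50e-06).

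Rfx5 measured 66.1 and 72.8 CPM in KO testes and 63.4, 63.5 and 59.9 CPM in WT testes (log2 0.16 ± 0.05, adjusted p = 0.0183). KO and WT did not overlap for any of the 6 genes in this set, Rfx3 and Rfx4 included. The share of all genes without overlap was not counted, so this is a description and marks no trait of the 6 genes. On the agreeing libraries the Rfx5 difference was 0.13 ± 0.06 and did not pass (adjusted p = 0.107), and without KO library 2 it was 0.088 (adjusted p = 0.322). Rfx7 measured 140 and 147 CPM in KO testes and 124, 132 and 131 CPM in WT testes (0.16 ± 0.04, adjusted p = 0.00568). Among the agreeing libraries its value was 0.16 ± 0.05 (adjusted p = 0.0241), and without KO library 2 it was 0.12 and did not pass (adjusted p = 0.0920). Rfx3, a cilia factor of many tissues, measured 37.5 and 35.8 CPM in KO testes and 39.8, 39.2 and 39.0 CPM in WT testes (-0.10 ± 0.06, interval -0.22 to 0.015, adjusted p = 0.1499). Rfx4, known for brain development and for a testis form, measured 85.1 and 89.1 CPM in KO testes and 90.9, 97.3 and 91.9 CPM in WT testes (-0.10 ± 0.05, interval -0.195 to -0.0025, adjusted p = 0.0907). Neither passed with the agreeing libraries, at -0.11 ± 0.07 for Rfx3 (adjusted p = 0.222) and -0.11 ± 0.06 for Rfx4 (0.136). Of the 6 genes, 2 were higher and 2 lower, in a comparison that called 43.9% of 16937 genes (17.8% higher and 26.1% lower). With the agreeing libraries 1 was higher and 2 lower, where 35.7% of genes were called (12.7% higher and 23% lower). DESeq2, by heading, called 3 of the 6, with its share over all genes not given here.

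Marker transcripts of several cell types also differed between KO and WT testes. Of the 10 spermatid genes 8 passed the filter on low counts, of which 7 fell and 1 rose. Tnp2, Prm1 and Prm2, genes of late spermatid chromatin, had 0 counts in both KO libraries. No gene of the panel was at 0 in a WT library, but the WT levels of these 3 genes are not given here. A low level in WT is therefore not set apart from a loss. The agreeing libraries gave 6 of 7 lower and 1 higher. The 3 fallen genes of smallest p changed far more than the panel sum, with Catsper1 at -7.41 ± 0.27, Acrv1 at -6.89 ± 0.31 and Spaca1 at -2.78 ± 0.15. The sum, in which abundant genes weigh most, was 486 to 490 CPM in KO testes and 522 to 567 CPM in WT testes. Of Sertoli cell markers 5 of 6 rose (465 to 491 CPM in KO, 373 to 391 CPM in WT), and of spermatogonia markers 5 of 6 rose (226 to 231 CPM in KO, 178 to 182 CPM in WT). Peritubular myoid markers rose in 3 of 4 (298 to 303 CPM in KO, 244 to 286 CPM in WT), and pachytene markers fell in 4 of 7 and rose in 1 (3238 to 3284 CPM in KO, 3671 to 3707 CPM in WT). With the agreeing libraries the Sertoli and spermatogonia counts were the same, 1 of 4 myoid markers rose, and 3 of 7 pachytene markers fell and none rose. The ribosomal RNA gene Rn45s took 5.53% and 5.29% of the counts in KO testes and 3.96%, 3.97% and 3.97% in WT testes. No Sertoli, spermatogonia, myoid or pachytene marker was at 0. By heading, Leydig markers fell in 1 of 4 tested and macrophage markers in 1 of 5, and none of 3 epididymal markers was called. On the agreeing libraries no macrophage marker was called. The part of these in the RFX values was not tested, and in bulk tissue fewer cells of a type and less RNA per cell cannot be told apart. Rfx8, the remaining family member with counts to test here, measured 38.8 and 32.8 CPM in KO testes and 82.4, 81.1 and 84.0 CPM in WT testes (-1.21 ± 0.06, edgeR adjusted p = 2.94e-11; -1.20 ± 0.07 and 2.22e-08 for the agreeing libraries).

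**Figure D3:**
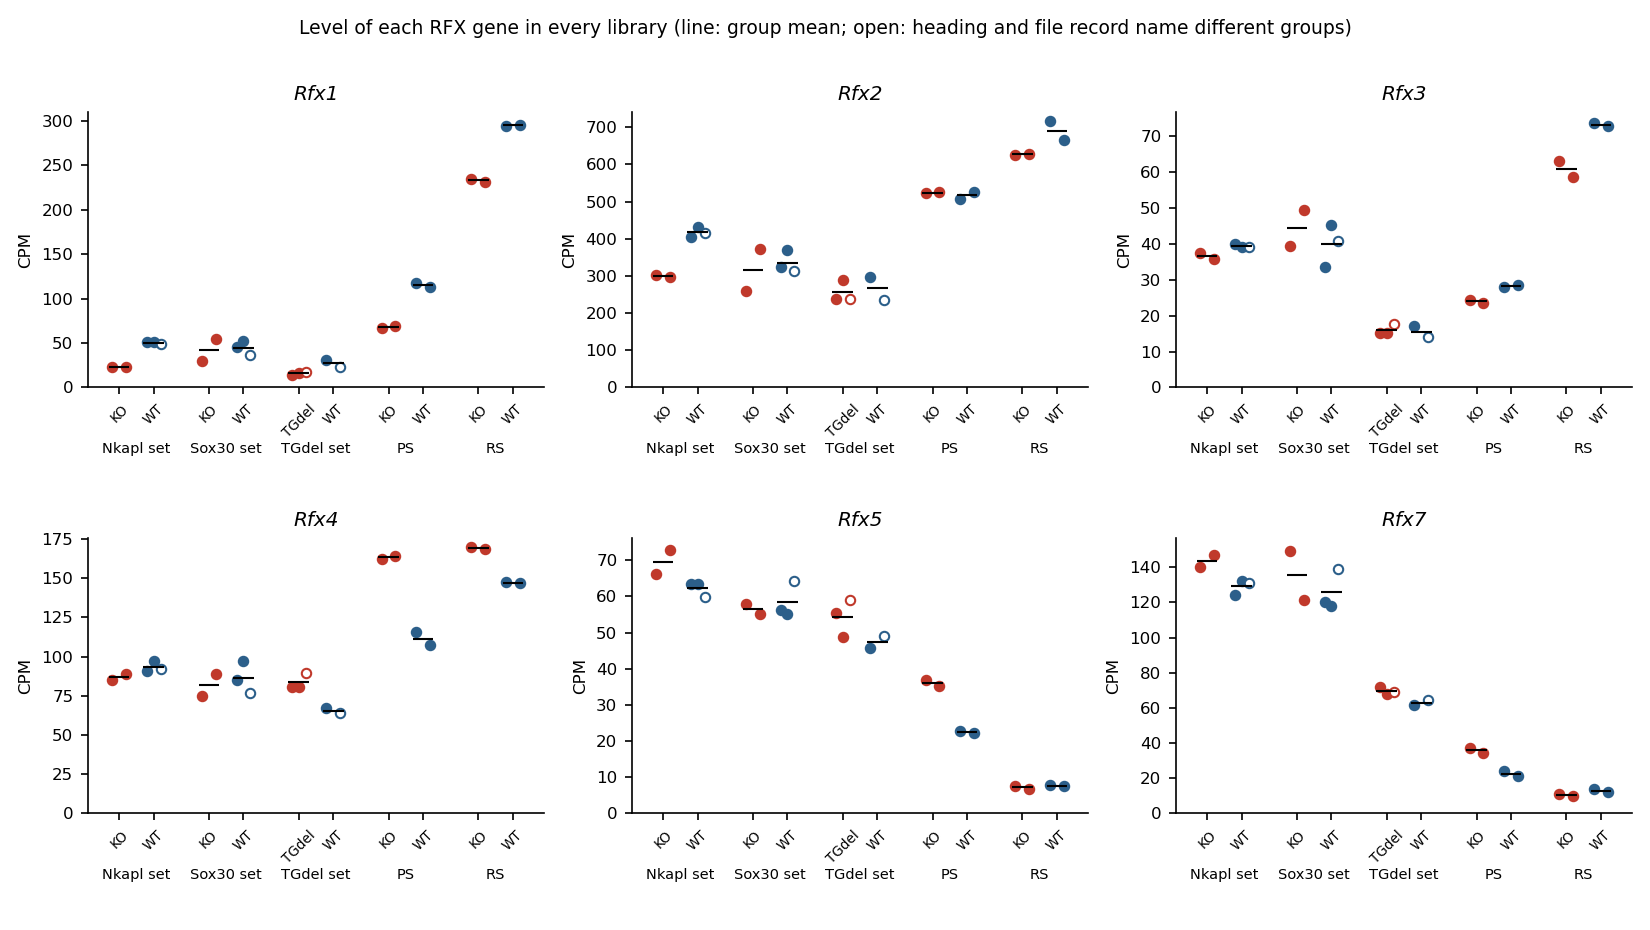
Level of each RFX gene in every library, in CPM on a linear axis that starts at 0, with the mutant left of its WT in each set. Points are libraries, lines are group means, and open points are the 4 libraries whose heading and file record name different groups; PS genotypes are as labelled, and CPM were scaled within each set, so sets are not on 1 scale.

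In TGdel testis none of the 6 genes passed by heading, in a comparison that called 1.25% of 16011 genes (0.2% higher and 1.05% lower). At an unadjusted p under 0.05 in edgeR there were 2 (Rfx1 and Rfx4), as were 2476 of all 16011 genes. DESeq2 called the same 2, among 576 genes in all. Rfx1 measured 13.7, 15.8 and 17.9 CPM in TGdel testes and 31.4 and 23.1 CPM in WT testes. All TGdel libraries lay below both WT libraries (-0.78 ± 0.16, interval -1.15 to -0.41, edgeR adjusted p = 0.0616). The WT library of 23.1 CPM is one whose heading and record conflict. In the agreeing libraries, 2 against 1, Rfx1 passed (-1.08 ± 0.18, adjusted p = 0.0212), as 1 gene lower where 2.02% of genes were called (0.0493% higher and 1.97% lower), with the lone WT library assumed to vary like the TGdel group. Rfx4 measured 80.4, 80.5 and 89.7 CPM in TGdel testes and 67.0 and 63.8 CPM in WT testes, without overlap (0.35 ± 0.08, interval 0.16 to 0.54, adjusted p = 0.0871). Its value in the agreeing libraries was 0.26 ± 0.12 (adjusted p = 0.443).

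The other 4 genes were closer. Rfx2 measured 239, 289 and 239 CPM in TGdel testes and 297 and 236 CPM in WT testes (-0.06 ± 0.12, interval -0.34 to 0.22). Rfx3 measured 15.1, 15.1 and 17.8 CPM in TGdel testes and 17.1 and 14.0 CPM in WT testes (0.04 ± 0.14, interval -0.28 to 0.36). Both genes overlapped between the groups, as did Rfx5, while Rfx7 did not. Rfx5 (55.4, 48.9 and 59.0 CPM in TGdel, 45.8 and 49.1 CPM in WT) had a difference of 0.20 ± 0.10, and Rfx7 (71.8, 67.8 and 68.8 CPM in TGdel, 61.5 and 64.6 CPM in WT) of 0.14 ± 0.08. Adjusted p-values of these 4 genes ran from 0.383 to 0.930. Values in the agreeing libraries were -0.17 ± 0.14 for Rfx2, -0.17 ± 0.20 for Rfx3, 0.19 ± 0.13 for Rfx5 and 0.18 ± 0.12 for Rfx7, with adjusted p-values from 0.698 to 0.860. The spermatid panel summed to 17.8 to 62.8 CPM in TGdel testes and 77.1 to 108 CPM in WT testes, with none of 8 tested genes called, 6 at an unadjusted p under 0.05 and 2 called by DESeq2. In the agreeing libraries 4 of 9 were lower, among them Catsper1 at -2.74 ± 0.52 and Spaca1 at -1.56 ± 0.31. Epididymal markers summed to 0.115 to 19.2 CPM in TGdel testes and 0.110 to 35.0 CPM in WT testes, with none of 3 tested called by heading. Leydig markers summed to 157 to 487 CPM in TGdel testes and 358 to 366 CPM in WT testes, with none of 5 called. The part of these panels in the RFX values was not tested. Rn45s took 0.497% of the counts of TGdel library 1 and 0.0598% to 0.0713% of the other 4 of the set, and without TGdel library 1 Rfx1 passed, at -0.69 (adjusted p = 0.0481). Rfx8 measured 73.2, 69.1 and 81.7 CPM in TGdel testes and 109 and 96.4 CPM in WT testes (-0.46 ± 0.10, edgeR adjusted p = 0.0607; -0.62 ± 0.12 and 0.0348 for the agreeing libraries).

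In Sox30 KO testis none of the 6 genes passed by either grouping, in comparisons that called 2.42% of 17816 genes by heading (0.505% higher and 1.92% lower) and 3.91% on the agreeing libraries (0.468% higher and 3.44% lower), and none had an unadjusted p under 0.05 or was called by DESeq2. Rfx1 measured 29.5 and 54.8 CPM in KO testes and 45.2, 52.6 and 36.0 CPM in WT testes, so that the KO libraries bracketed the WT range (-0.08 ± 0.27, interval -0.71 to 0.55, adjusted p = 0.9995). Rfx2 measured 260 and 373 CPM in KO testes and 325, 369 and 313 CPM in WT testes (-0.08 ± 0.16, interval -0.47 to 0.30). Rfx3 measured 39.3 and 49.4 CPM in KO testes and 33.7, 45.2 and 40.7 CPM in WT testes (0.16 ± 0.16). In each of these 3 genes KO library 1 was below KO library 2, with WT values between or beyond them. Rfx4 had 74.8 and 89.1 CPM in KO testes and 84.8, 97.02 and 76.8 CPM in WT testes (-0.07 ± 0.13). For Rfx5 the values were 57.8 and 55.1 CPM in KO testes and 56.3, 55.0 and 64.4 CPM in WT testes (-0.05 ± 0.10). For Rfx7 they were 150 and 122 CPM in KO testes and 120, 118 and 139 CPM in WT testes (0.11 ± 0.12). All 6 genes overlapped between groups, and a change of the size of Rfx1 in Nkapl KO testis lies outside the interval of Rfx1 here. With the agreeing libraries Rfx1 had -0.23 ± 0.27 (interval -0.86 to 0.41), the other 5 genes ran from -0.16 to 0.17, and adjusted p-values of the 6 genes ran from 0.973 to 0.999. Spermatid genes fell in 4 of 10 by heading, with 9 at an unadjusted p under 0.05 and 8 called by DESeq2, and in 9 of 10 with the agreeing libraries. Catsper1 changed by -7.51 ± 0.62, Tssk2 by -5.14 ± 0.65 and Tssk1 by -2.02 ± 0.37, while the panel sum, in which abundant genes weigh most, was 496 to 525 CPM in KO and 535 to 658 CPM in WT. By either grouping 3 of 3 epididymal markers tested rose (36.6 to 62.6 CPM in KO, 0.236 to 0.298 CPM in WT), and their part was not tested.

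**Figure D4:**
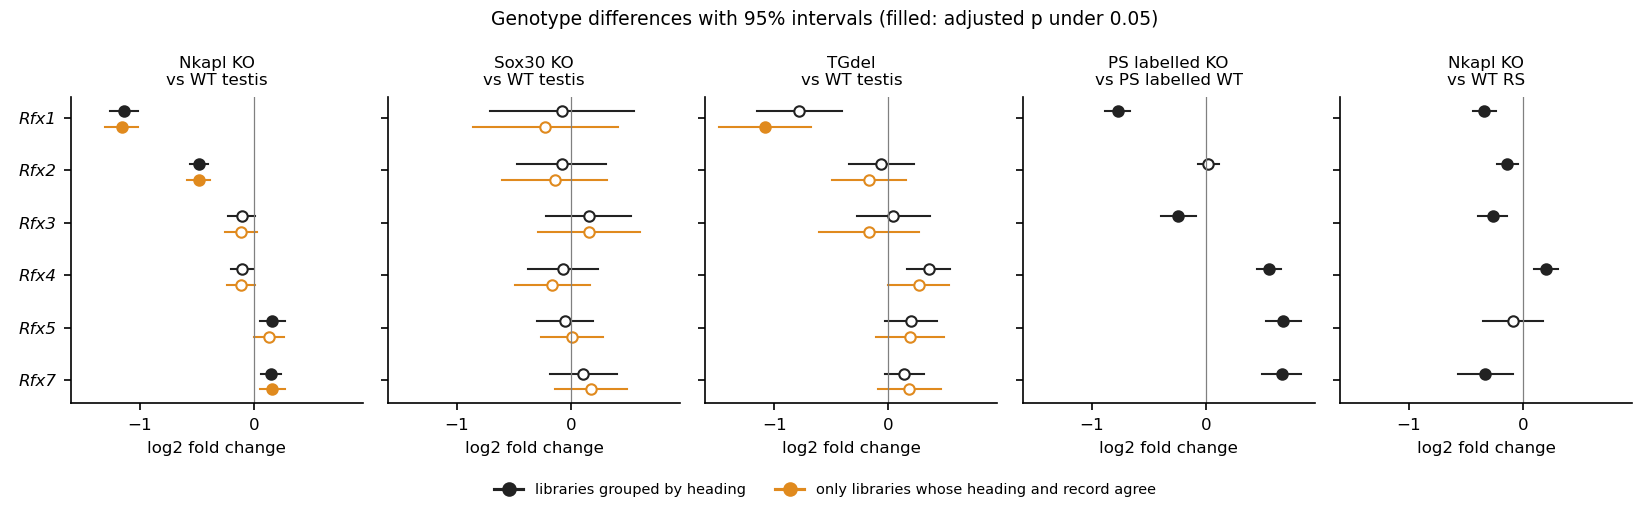
Log2 fold change of each RFX gene between genotypes with its 95% interval, in 5 comparisons, filled where the edgeR adjusted p was under 0.05. Black points use libraries grouped by heading and orange points, in the testis sets, the libraries on which heading and record agree; Rfx1 lies left of 0 with a filled black point in Nkapl KO testis, PS and RS.

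The differences between these effects were tested in joint fits. Between the Nkapl KO and Sox30 KO effects none of the 6 genes differed (Rfx1 -1.04 ± 0.32, interval -1.75 to -0.32, adjusted p = 0.136), where 2.8% of genes were called (0.168% higher and 2.64% lower). Of the 6, Rfx1 alone had an unadjusted p under 0.05 in edgeR, as did 2942 of all 17867 genes. DESeq2 called Rfx1 alone of the 6, among 886 genes in all. On the agreeing libraries the Rfx1 difference was -0.92 ± 0.34 (adjusted p = 0.358, with 0.815% of genes called, 0.0225% higher and 0.793% lower). Between the Nkapl KO and TGdel effects, Rfx8 differed by -0.65 ± 0.12 (edgeR adjusted p = 0.0101), and its value on the agreeing libraries was -0.59. Among the 6, Rfx4 differed by -0.35 ± 0.09 (adjusted p = 0.0287), where 11.8% of genes were called (4.83% higher and 6.96% lower). For the agreeing libraries the value was -0.395 ± 0.10 and did not pass (adjusted p = 0.0845; 0.706% called, 0.023% higher and 0.683% lower). The difference for Rfx1 was -0.26 ± 0.17 by heading (interval -0.63 to 0.11, adjusted p = 0.346) and -0.092 ± 0.14 for the agreeing libraries (adjusted p = 0.803). Without TGdel-set WT library 1 it was -0.59 and passed (adjusted p = 0.0408).

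The 6 genes differed between the sorted stages, in a comparison that called most genes tested. Against PS labelled WT, RS of WT mice had more Rfx1 (294 and 296 CPM in RS, 117 and 114 CPM in PS; log2 1.36 ± 0.05) and more Rfx3 (73.6 and 72.7 CPM in RS, 28.1 and 28.6 CPM in PS; 1.37 ± 0.07). Rfx2 was higher by less (716 and 666 CPM in RS, 506 and 526 CPM in PS; 0.42 ± 0.05), as was Rfx4 (148 and 147 CPM in RS, 115 and 107 CPM in PS; 0.40 ± 0.05). Rfx5 was lower in RS (7.76 and 7.46 CPM in RS, 22.8 and 22.3 CPM in PS; -1.57 ± 0.10), and so was Rfx7 (13.9 and 11.9 CPM in RS, 24.2 and 21.0 CPM in PS; -0.81 ± 0.10). All 6 passed, with 4 higher and 2 lower in a comparison that called 77.5% of 15805 genes (41.1% higher and 36.4% lower). RS and PS did not overlap for any of the 6. As the share of all genes without overlap was not counted, this is a description only. This contrast rests on the PS libraries labelled WT, whose Nkapl level goes against their label. Rfx4 had 162 and 164 CPM in PS labelled KO, above its values in WT RS. For the other members the direction is the same against PS labelled KO.

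In KO libraries the same contrast gave 1.78 ± 0.05 for Rfx1, 1.34 ± 0.07 for Rfx3, 0.26 ± 0.05 for Rfx2, -2.33 ± 0.10 for Rfx5 and -1.81 ± 0.10 for Rfx7, all past the threshold (77% of genes called, 37.7% higher and 39.3% lower). Rfx4 had 0.05 ± 0.05 and did not pass (adjusted p = 0.349), but it passed at 0.13 with relative log expression scaling in edgeR (adjusted p = 0.0279) and in DESeq2 (0.0495). This contrast rests on the PS libraries labelled KO, whose Nkapl level goes against their label. Sertoli markers summed to 4.51 to 5.37 CPM in WT RS and 33.4 to 35.4 CPM in PS labelled WT, with 6 of 6 lower in RS and none at 0. Macrophage markers summed to 11.9 to 12.7 CPM in WT RS and 7.60 to 9.47 CPM in PS labelled WT, with 4 of 5 higher and 1 lower. The part of either cell type in the RFX values was not tested.

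Between PS labelled KO and PS labelled WT, 3 of the 6 genes were higher and 2 lower, where 59.2% of 15805 genes were called (33.6% higher and 25.7% lower). Rfx1 measured 66.5 and 68.8 CPM in PS labelled KO and 117 and 114 CPM in PS labelled WT (-0.77 ± 0.05, edgeR adjusted p = 5.99e-13). Rfx3 measured 24.5 and 23.5 CPM in PS labelled KO and 28.1 and 28.6 CPM in PS labelled WT (-0.24 ± 0.08, adjusted p = 0.00696), and without the second KO-labelled library it did not pass (adjusted p = 0.0802). In both genes the libraries labelled KO were the lower ones. Rfx4 measured 162 and 164 CPM in PS labelled KO and 115 and 107 CPM in PS labelled WT (0.55 ± 0.05, adjusted p = 3.33e-10). Rfx5 measured 37.0 and 35.3 CPM in PS labelled KO and 22.8 and 22.3 CPM in PS labelled WT (0.68 ± 0.08, adjusted p = 8.39e-09). Rfx7 measured 37.4 and 34.4 CPM in PS labelled KO and 24.2 and 21.0 CPM in PS labelled WT (0.67 ± 0.08, adjusted p = 6.24e-08). These 5 genes did not overlap between the labels, which is a description, as the share of all genes without overlap was not counted. Rfx2 did overlap, at 522 and 526 CPM in PS labelled KO and 506 and 526 CPM in PS labelled WT (0.02 ± 0.05, interval -0.07 to 0.11). If the labels were exchanged, each of these signs would turn round.

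The spermatid panel moved with the PS labels: it summed to 704 to 712 CPM in PS labelled KO and 2079 to 2194 CPM in PS labelled WT, with 10 of 10 genes lower and none at 0. Sertoli markers summed to 22.8 to 25.5 CPM in PS labelled KO and 33.4 to 35.4 CPM in PS labelled WT (3 of 6 lower). Spermatogonia markers summed to 50.7 to 51.04 CPM in PS labelled KO and 40.4 to 41.0 CPM in PS labelled WT (4 of 6 higher). Pachytene markers summed to 4320 to 4450 CPM in PS labelled KO and 3638 to 3801 CPM in PS labelled WT (5 of 7 higher and 2 lower). Leydig markers summed to 56.2 to 60.1 CPM in PS labelled KO and 39.1 to 40.1 CPM in PS labelled WT (4 of 4 higher). Against PS labelled WT, WT RS had more Rfx1, Rfx2, Rfx3 and Rfx4 and less Rfx5 and Rfx7. Against the same libraries, PS labelled KO had less Rfx1 and Rfx3 and more Rfx4, Rfx5 and Rfx7, and Rfx2 did not pass. Reads assigned to no gene were 23.5% and 23.2% in PS labelled KO and 19.999% and 18.8% in PS labelled WT. The part of these in the PS differences was not tested.

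In RS, 1 of the 6 genes was higher in KO and 4 were lower, where 60% of 15805 genes were called (29% higher and 31% lower). Rfx1 measured 235 and 231 CPM in KO RS and 294 and 296 CPM in WT RS (-0.34 ± 0.05, interval -0.44 to -0.24, edgeR adjusted p = 6.24e-07). Rfx2 measured 626 and 629 CPM in KO RS and 716 and 666 CPM in WT RS (-0.14 ± 0.05, adjusted p = 0.00955), and without WT library 1 it did not pass (adjusted p = 0.0822). Rfx3 measured 63.1 and 58.7 CPM in KO RS and 73.6 and 72.7 CPM in WT RS (-0.27 ± 0.06, adjusted p = 0.000570). All of these KO libraries lay below their WT libraries, which is a description, as the share of all genes without overlap was not counted.

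Rfx4 measured 170 and 169 CPM in KO RS and 148 and 147 CPM in WT RS (0.20 ± 0.05, adjusted p = 0.00145). It was the 1 gene of the 6 with both KO libraries above both WT libraries. Rfx7 measured 10.7 and 9.81 CPM in KO RS and 13.9 and 11.9 CPM in WT RS (-0.33 ± 0.12, adjusted p = 0.0172), and it did not pass in DESeq2 (0.0815), without KO library 2 (0.112) or without WT library 1 (0.172). Rfx5 measured 7.62 and 6.71 CPM in KO RS and 7.76 and 7.46 CPM in WT RS, which overlap (-0.09 ± 0.13, interval -0.35 to 0.18, adjusted p = 0.574). Spermatid genes fell in 10 of 10 (2016 to 2063 CPM in KO RS, 7112 to 7390 CPM in WT RS, none at 0), and macrophage markers rose in 4 of 5 (23.6 to 24.9 CPM in KO RS, 11.9 to 12.7 CPM in WT RS). Pachytene markers were higher in 4 of 7 and lower in 1 (3887 to 3971 CPM in KO RS, 3289 to 3315 CPM in WT RS). Leydig markers were higher in 4 of 4 (19.8 to 21.2 CPM in KO RS, 8.10 to 8.35 CPM in WT RS), and spermatogonia markers in 3 of 6 (39.8 to 40.2 CPM in KO RS, 30.8 to 31.9 CPM in WT RS). Reads assigned to no gene were 24.5% and 24.6% in KO RS and 19.4% and 19.4% in WT RS. The part of these in the RFX values was not tested. Rfx8 measured 116 and 115 CPM in KO RS and 149 and 148 CPM in WT RS (-0.37 ± 0.06, adjusted p = 1.40e-06).

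The KO effect in RS differed from the effect in PS for 4 of the 6 genes, where 25.5% of genes were called (9.02% higher and 16.4% lower). For Rfx1 the effect in RS minus that in PS was 0.43 ± 0.07 (adjusted p = 6.42e-05), since the gene was lower in both cell types and by less in RS. For Rfx4 it was -0.35 ± 0.07 (adjusted p = 0.000843), higher in both and by less in RS. Rfx5 (-0.77 ± 0.15, adjusted p = 0.000343) and Rfx7 (-0.998 ± 0.14, adjusted p = 7.69e-06) were higher in PS labelled KO and not in KO RS. Rfx2 (-0.16 ± 0.06, adjusted p = 0.0644) and Rfx3 (-0.02 ± 0.10, adjusted p = 0.888) did not pass. With the PS labels exchanged these differences would change.

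Partners and known target classes of the factors are given by lists, whose members share libraries. Median log2 fold changes over all genes tested were 0.01 in Nkapl KO testis, 0.03 in RS and 0.07 in PS, and each count of a list stands against the share of all genes called. In Nkapl KO testis those shares were 17.8% higher and 26.1% lower. Of partners of RFX factors in cilia and testis, 6 of 8 fell in Nkapl KO testis and none rose (median -0.29), with 5 lower in the agreeing libraries. Foxj1, a switch for motile cilia, changed by -3.96 ± 0.14, Crem, an activator of spermatid genes, by -0.57 ± 0.05, and Fhl5, its coactivator, by -2.79 ± 0.32. Of 24 genes of ciliary transport 17 fell and none rose in Nkapl KO testis (median -0.28), led by the intraflagellar transport genes Ift122 (-0.62 ± 0.04), Ift172 (-0.45 ± 0.03) and Ift74 (-0.41 ± 0.04). Of 25 genes of the motile axoneme 21 fell and none rose (median -0.49), with Spag6 of the central apparatus at -5.52 ± 0.20, Armc4 at -1.28 ± 0.06 and the tektin gene Tekt2 at -1.37 ± 0.06. The agreeing libraries gave the same numbers, 17 and 21. Of 13 transition zone genes 6 fell and 1 rose (median -0.13).

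The TGdel and Sox30 comparisons called far fewer genes of any kind. In TGdel testis, where 1.05% of all genes were lower, 5 of 25 axoneme genes fell, among them Dnaic1 (-0.63 ± 0.08), Armc4 (-0.73 ± 0.10) and Dnaic2 (-0.71 ± 0.11), with 1 of 24 transport genes (Dync2li1, -0.56 ± 0.10). With the agreeing libraries 6 axoneme genes and no transport gene were called, with 8 transport genes at an unadjusted p under 0.05 in edgeR and DESeq2 not run on that grouping. Of the partners none of 7 was called by heading (4 at an unadjusted p under 0.05, 1 by DESeq2), and 1, Foxj1, in the agreeing libraries (-1.85 ± 0.38). In Sox30 KO testis, where 1.92% of all genes were lower, no transport or axoneme gene was called by edgeR in either grouping or by DESeq2, and 0 and 2 had an unadjusted p under 0.05. Of the partners, Fhl5 was called in the agreeing libraries (-3.56 ± 0.50). In RS, where 29% of all genes were higher and 31% lower, 12 of 24 transport genes fell and 3 rose in KO (median -0.13), and 11 of 25 axoneme genes fell and 5 rose (median -0.10). Dync2li1, a motor subunit of transport, changed by -1.52 ± 0.08, and Zmynd10, which helps assemble dynein arms, by 0.84 ± 0.05. In PS labelled KO 11 of 24 transport genes were higher and 7 lower (median -0.01), and 9 of 25 axoneme genes were higher and 9 lower (median -0.06), where 33.6% of all genes were higher and 25.7% lower.

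Between the sorted stages, the partners of RFX factors were higher in RS of WT mice in 6 of 8 and lower in 2, against PS labelled WT (Fhl5 1.44 ± 0.06, Foxj1 1.34 ± 0.05, Crem 0.76 ± 0.05). Axoneme genes were higher in RS in 17 of 25 and lower in 7 (median 0.34), with Spag6 at 1.41 ± 0.05. The RFX5 complex list was lower in RS in 5 of 6 and higher in 1 (median -0.69), with Rfxap, which binds RFX5, at -3.35 ± 0.15. The median over all genes tested was 0.05, with 41.1% higher and 36.4% lower. Within stages, Fhl5 changed by -1.19 ± 0.06 in PS labelled KO and by -1.09 ± 0.05 in KO RS, and E2f5, a cell cycle factor also needed for multiciliated cells, by -1.28 ± 0.12 in PS labelled KO and by -1.55 ± 0.09 in KO RS.

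The RFX5 complex and its promoter partners were higher in 3 of 6 tested in Nkapl KO testis and lower in none (median 0.16), where 17.8% of all genes were higher. Creb1 changed by 0.19 ± 0.05, Nfyc by 0.19 ± 0.05 and Rfxap by 0.22 ± 0.08. Of the list, 2 of 6 passed with the agreeing libraries. The MHC class II genes that the complex drives went the other way, with 3 of 6 lower and none higher by either grouping (median -0.59; 26.1% of all genes lower): H2-DMa by -0.88 ± 0.16, H2-DMb1 by -0.94 ± 0.23 and H2-Ab1 by -0.59 ± 0.17. Their sum was low, at 12.1 to 13.1 CPM in KO testes and 17.3 to 24.2 CPM in WT testes. Macrophage markers, of cells that express these genes, fell in 1 of 5 (99.6 to 100.3 CPM in KO, 95.3 to 112 CPM in WT), and their part was not tested. In KO RS, where Rfx5 did not pass, 3 of 7 class II genes rose and 1 fell (29% and 31% of all genes), with Cd74 at 1.94 ± 0.20 and H2-Ab1 at -0.98 ± 0.16, beside the macrophage values given for RS.

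The RFX7 targets are known from human cell lines, and the list of 10 includes Rfx5. In Nkapl KO testis 3 rose and 2 fell (median 0.05; 17.8% and 26.1% of all genes), with Pdcd4 at -0.25 ± 0.04, Mxd4 at -0.31 ± 0.05 and Tspyl2 at 0.20 ± 0.05. With the agreeing libraries 1 rose and 2 fell. In RS 5 were higher and 2 lower in KO (median 0.12; 29% and 31% of all genes), with Pik3ip1 at 0.74 ± 0.05, Tob1 at -0.71 ± 0.07 and Mxd4 at -0.43 ± 0.06. In PS labelled KO the counts were also 5 and 2 (median 0.18; 33.6% and 25.7% of all genes). In TGdel testis Pik3ip1 alone passed by heading (0.42 ± 0.07), and none with the agreeing libraries (3 at an unadjusted p under 0.05 in edgeR; DESeq2 not run there), and in Sox30 KO testis none passed, by edgeR or DESeq2, with 0 at an unadjusted p under 0.05.

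Genes whose level followed that of an RFX gene most closely were ranked by Pearson's r of log2 CPM over the 23 libraries, after the mean of each testis set and cell type was subtracted, among 13302 genes. Libraries share genotype groups and cell mixtures, so r is a description. For Rfx1 they were Fam78a (0.98), Fsip1 (0.98) and Zmynd15 (0.97), and for Rfx2 Pnpla2 (0.96), Wdtc1 (0.96) and Lrrc46 (0.96). For Rfx4 they were Abcc12 (0.97), Npepps (0.96) and Pask (0.95), and for Rfx3, with the lowest values, Dclk1 (0.84), Pias1 (0.82) and Immp1l (0.81). For Rfx5 they were Nup155 (0.92), Kansl1 (0.92) and Naa35 (0.92), and for Rfx7 Chd9 (0.94), Rngtt (0.94) and Gnl2 (0.93).

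All 6 genes are protein coding in GRCm38. Rfx1 lies on chromosome 8 at 84066834 to 84096992, Rfx2 on chromosome 17 at 56775897 to 56831013, Rfx3 on chromosome 19 at 27761721 to 28011166, Rfx4 on chromosome 10 at 84756062 to 84906538, Rfx5 on chromosome 3 at 94954075 to 94961561 and Rfx7 on chromosome 9 at 72532240 to 72622937. Rfx2 overlaps no other annotated gene. Rfx1 holds Mir709 on its strand and overlaps an antisense RNA, and Rfx3, Rfx4, Rfx5 and Rfx7 overlap antisense RNAs, pseudogenes or a small RNA. No source used here gives the strand setting of the counting, so reads of such overlaps cannot be told apart from those of the RFX gene.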

How the data were processed

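RNA was sequenced from whole testis and sorted germ cells. TRIzol extraction and stranded total RNA libraries are stated per the labels' protocols. The authors deposited raw read counts per gene symbol, and the submitters' processing notes name HISAT2 2.1.0, HTSeq, DESeq2 and mm10 (annotation and strand setting: not given in the sources used here). Summary lines that name no gene, 18.8% to 24.6% of the reads in sorted-cell files, entered neither library sizes nor tests.

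Libraries were grouped by column heading, which names another sample than the record in 15 of 18 testis files, and 3 files with identical values were used once. Other replicate pairs differed beyond counting noise (mean chi-square per gene 1.40 to 41.95, where 1 is noise). Total counts were 20120729 to 25514132 in the Nkapl set, 34167576 to 40010106 in the Sox30 set, 16469667 to 17822056 in the TGdel set and 18155299 to 19569272 in sorted cells.

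Genes were kept with filterByExpr by group, TMM scaled and tested with edgeR 4.0.16 (R 4.3.3; quasi-likelihood F test, two-sided, Benjamini-Hochberg adjusted p under 0.05 over all genes tested). One fit was made per testis set and 1 for the 8 sorted libraries, and differences of effects were contrasts in joint fits. Standard errors are the log2 fold change over the square root of F, and 95% intervals use the t quantile of edgeR's degrees of freedom. CPM use these scaling factors within each set, and CPM per kb divide by exon length. DESeq2 1.42.0 was an alternative. The Nkapl KO, Sox30 KO and TGdel testis comparisons and the RS comparison were also run on simulated counts with a fixed spread. The PS comparison, the stage contrasts and the differences of effects were not simulated.

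The genes, lists and alternatives were chosen with earlier results of these data known. From each list the text names up to 3 called members of smallest p, and for each RFX gene the 3 most similar genes, with provisional Gm and Rik symbols passed over.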

Additional observations from a re-analysis of the deposited data

Results flagged for a closer look

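These results were singled out because a test of the difference between 2 effects passed. The effect of the KO label in RS minus that in PS was 0.43 ± 0.07 for Rfx1 (edgeR adjusted p = 6.42e-05), -0.35 ± 0.07 for Rfx4 (0.000843), -0.77 ± 0.15 for Rfx5 (0.000343) and -0.998 ± 0.14 for Rfx7 (7.69e-06). Each passed in all 12 alternatives run, but all rest on the PS labels. In testis, the Nkapl KO effect minus the TGdel effect was -0.35 ± 0.09 for Rfx4 (adjusted p = 0.0287), which lost its call in 6 of 15 alternatives and reversed in 1.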

How the results depend on the processing

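Grouping by file record changed most, since it puts 4 libraries in another genotype. It called 0 genes in the Nkapl KO, Sox30 KO and TGdel comparisons and in both differences of testis effects (with edgeR, 415, 1202, 187, 376 and 144 at an unadjusted p under 0.05), and 0 of the 6 RFX genes in Nkapl KO testis and in the Nkapl KO minus TGdel difference, against 4 and 1 by heading. Under it, values turned to 0.0859 for Rfx5 in Sox30 KO testis, to -0.24 for Rfx3, -0.0654 for Rfx4 and -0.0353 for Rfx5 in TGdel testis, to 0.12 for Rfx4 and -0.0507 for Rfx7 in the Nkapl KO minus Sox30 KO difference, and to 0.23 for Rfx3 and 0.0468 for Rfx4 in the Nkapl KO minus TGdel difference. On the agreeing libraries, which are fewer, 693 genes were called in Sox30 KO testis, 328 in TGdel testis (1 RFX gene), 145 in the Nkapl KO minus Sox30 KO difference and 123 in the Nkapl KO minus TGdel difference (0 RFX genes, 2 at an unadjusted p under 0.05). There Rfx5 in Sox30 KO testis was 0.0067 and Rfx3 in TGdel testis -0.17. Rfx4 in the Sox30 difference was 0.0652, and Rfx3, Rfx5 and Rfx7 in the TGdel difference were 0.044, -0.0751 and -0.038.

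DESeq2 called 765 genes in Sox30 KO testis, 576 in TGdel testis (2 RFX genes), 2252 in the RS minus PS difference and 886 in the Nkapl KO minus Sox30 KO difference (1 RFX gene). In the Nkapl KO minus TGdel difference it called 2 RFX genes, and its count over all genes is not given here. It turned Rfx2 in PS to -0.0176, Rfx3 in the RS minus PS difference to 0.0392 and Rfx5 in the TGdel difference to -0.0027, and so did edgeR with relative log expression scaling (-0.0176, 0.0392 and -0.0024). A single fit of all testis libraries called 3351 genes in Nkapl KO testis (2 RFX genes), 896 in Sox30 KO testis and 425 in TGdel testis. Without a filter on low counts 88 genes were called in TGdel testis, Rfx2 in PS was -0.05 and Rfx3 in the RS minus PS difference 0.0198, and with PS libraries alone Rfx2 was -0.0542. The cause was not tested.

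No label pairs libraries by number, and no pair of groups has more than 2 same-numbered pairs. Their deviations from the group means correlated by 0.11 and 0.49 in the Sox30 set, 0.028 and 0.017 in the Nkapl set, -0.18 and -0.17 in the TGdel set and -0.0195 to 0.0483 in sorted cells. With a replicate block on those numbers, 6136 genes were called in Nkapl KO testis (3 RFX genes), 1728 in Sox30 KO testis (432 without the block) and 0 in TGdel testis (1686 at an unadjusted p under 0.05 in edgeR), with Rfx5 in Sox30 KO testis at 0.02 and Rfx3 in TGdel testis at -0.033.

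When 1 library was left out at a time, 2 to 4 RFX genes were called in Nkapl KO testis (2 without KO library 2) and 3 to 5 in RS (3 without WT library 1). The calls over all genes in these Nkapl KO testis and RS fits are not given, so the counts are a description. RFX calls were 0 to 1 in TGdel testis, 0 to 2 in the Nkapl KO minus Sox30 KO difference and 0 to 3 in the Nkapl KO minus TGdel difference. In the last, any Nkapl-set library left out gave 0. Calls over all genes ran from 20 to 693 in Sox30 KO testis, from 0 to 504 in TGdel testis (0 without TGdel library 2, with 2188 at an unadjusted p under 0.05 in edgeR; DESeq2 was not run on these subsets), from 2679 to 4449 in the RS minus PS difference, from 42 to 2072 in the Nkapl KO minus Sox30 KO difference and from 19 to 3313 in the Nkapl KO minus TGdel difference. In Sox30 KO testis values ran from -0.60 to 0.30 for Rfx1, -0.37 to 0.15 for Rfx2, -0.0187 to 0.31 for Rfx3, -0.20 to 0.0468 for Rfx4, -0.0961 to 0.0067 for Rfx5 and -0.0471 to 0.25 for Rfx7. In TGdel testis they ran from -0.22 to 0.12 for Rfx2 and -0.0902 to 0.19 for Rfx3. They ran from -0.051 to 0.0514 for Rfx2 in PS and -0.0564 to 0.0848 for Rfx3 in the RS minus PS difference. In the Nkapl KO minus Sox30 KO difference they ran from -0.15 to 0.13 for Rfx4 and -0.069 to 0.19 for Rfx7, and in the Nkapl KO minus TGdel difference from -0.13 to 0.13 for Rfx5 and -0.0515 to 0.15 for Rfx7.

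Rfx1 and Rfx2 in Nkapl KO testis kept their calls in 11 of 12 alternatives, all but the record grouping. With 2 or 3 libraries per group, small differences such as those of Rfx3 and Rfx4 in Nkapl KO testis cannot be settled at this number of libraries.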
